A study of Arabidopsis thaliana with 24 samples.

Results

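The GASA genes of Arabidopsis encode small secreted peptides, and 6 of them, GASA1 (AT1G75750), GASA2 (AT4G09610), GASA3 (AT4G09600), GASA4 (AT5G15230), GASA5 (AT3G02885) and GASA6 (AT1G74670), were followed here through late seed development. These 6 loci were taken by name from the 33597 loci of the deposited count table. They were chosen by name, but with their measured levels in abi3-5 already known, namely the loss of the neighbouring genes GASA2 and GASA3, so the values in abi3-5 are described below without a test. Peptides of this family end in a cysteine-rich domain, and several of their genes respond to gibberellin, the hormone that drives germination and growth. Seed maturation, in which the embryo fills with reserves and becomes able to survive drying, runs under abscisic acid and the regulators LEC1, LEC2, FUS3 and ABI3. LEC1 is a subunit of a CCAAT-binding factor, and the other three bind DNA through a B3 domain, for which the RY motif CATGCA is the known site.

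The study set 5 maturation mutants beside their wild types. The lec1-1 and lec2-1 mutants were compared with Ws, the ecotype Wassilewskija, abi3-5 and the weak allele abi3-1 with Ler (Landsberg erecta), and fus3-3 with Col-0 (Columbia). The study's design names lec1-1, abi3-5 and fus3-3 as intolerant of desiccation and lec2-1 and abi3-1 as tolerant; the sample labels give abi3-1 an intolerant phenotype, and the design was followed. The 3 harvests were made 15, 17 and 21 days after flowering (DAF), from siliques of 24 plants. Every genotype and day is represented by 1 sequenced library of RNA pooled from 3 collections, so the days stand in for replicates. Each SE was worked back from the edgeR test, as the size of the log2 difference divided by the square root of its F statistic. It rests on 1 estimate of spread per gene, shared by all genotypes in the fit. It reflects the spread among days left after the day effect shared by the genotypes, not that of the named genotype alone.

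Total counts ran between 1670355 and 6531673 in 23 distinct libraries; the values deposited for lec2-1 at 15 DAF and at 17 DAF are the same at every locus and entered once, so lec2-1 has 2 libraries. Levels are CPM (counts scaled to a common library size) after TMM scaling, which corrects for a few very abundant transcripts filling a library. LEC1 and LEC2 had between 0 and 5 counts per genotype, and FUS3 and ABI3 transcripts were still detected in their mutants. FUS3 had 18.2, 5.40 and 0.81 normalized CPM in fus3-3, against 22.0, 0 and 13.8 in Col-0, and ABI3 had 21.8, 57.5 and 28.2 in abi3-5, against 137, 52.8 and 79.2 in Ler. The ranges overlapped for both, so the mutated genes gave no check of the labels. The Col-0 library labelled 17 DAF was most like the Ws and Ler libraries of 21 DAF (Pearson correlation of log2 levels over genes, 0.919 with each). The one labelled 21 DAF was most like Ws at 17 DAF (0.892), with Ws at 15 DAF close behind (0.885). Among the Ler libraries it was more like 15 DAF (0.840) than 17 DAF (0.827). Folds over time therefore come from Ws and Ler. As to the labelled tissue, 4 embryo reserve genes of seeds summed to 35624 or more normalized CPM in every library, and 4 silique wall markers to 13.6 or less.

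All 6 genes encode peptides of 97 to 106 residues with 12 cysteines in the last 60 residues. GASA2 and GASA3 lie next to each other on chromosome 4, both on the minus strand, at 6074770 to 6075645 and 6072804 to 6073646 of TAIR10.1, with no gene in the 1123 bases between them. Their proteins were identical at 84.8% of aligned residues, whereas every other pair among the 6 shared between 35.7% and 60.4%. GASA4 and GASA6, on chromosomes 5 and 1, were the closest of the other pairs at 60.4%. GASA2 and GASA3 have 3 exons each, and 2.18% of the 25-base words of the GASA2 transcript and none of its 50-base words also occur in GASA3; the read length is not given in the sources used here, so reads shared by the pair remain a source of error of unknown size. GASA6 overlaps AT1G74675, an uncharacterized gene on the other strand. Whether the counting used strand is not given in the sources used here, so reads of GASA6 and AT1G74675 cannot be told apart where they overlap.

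The 250 bases upstream of the 3 genes with the clearest changes are printed because the mutated regulators act through promoter motifs. The sequence is that of the Col-0 reference (RefSeq, TAIR10.1), each line reads 5′ to 3′ towards the gene, and capitals mark matches on either strand to the RY motif (CATGCA) or to ACGTG, the core of the abscisic acid response element. GASA2 is at chr4:6075646-6075895 on the minus strand, GASA3 at chr4:6073647-6073896 on the minus strand and GASA4 at chr5:4944566-4944815 on the plus strand.
GASA2: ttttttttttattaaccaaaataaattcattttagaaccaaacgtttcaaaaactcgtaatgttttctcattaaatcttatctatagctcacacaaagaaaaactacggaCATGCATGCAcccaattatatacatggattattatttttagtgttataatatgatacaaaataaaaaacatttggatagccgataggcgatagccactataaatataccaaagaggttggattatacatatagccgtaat
GASA3: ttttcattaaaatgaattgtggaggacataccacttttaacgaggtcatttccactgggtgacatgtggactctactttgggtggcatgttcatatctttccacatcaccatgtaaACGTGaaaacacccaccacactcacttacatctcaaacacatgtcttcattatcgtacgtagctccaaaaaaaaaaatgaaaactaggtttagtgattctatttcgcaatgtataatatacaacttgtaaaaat
GASA4: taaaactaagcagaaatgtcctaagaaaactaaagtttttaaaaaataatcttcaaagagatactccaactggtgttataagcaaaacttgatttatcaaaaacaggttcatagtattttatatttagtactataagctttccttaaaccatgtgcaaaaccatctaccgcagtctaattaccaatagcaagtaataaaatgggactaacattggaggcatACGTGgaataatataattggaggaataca
Within a window of 250 bases before to 50 after its start, GASA2 held 3 overlapping matches to CATGCA, counted on both strands, in a single run between positions -140 and -131. Of 27443 protein-coding promoters in the same window, 9.72% held at least 1 such match and 0.394% at least 3. GASA3 held no CATGCA and 1 ACGTG at -134 to -130, and GASA4 and GASA5 each held 1 ACGTG, which 26.7% of all promoters hold. GASA1 and GASA6 held neither, and no window of the 6 held the gibberellin response motif TAACAAA or the G-box CACGTG, present in 18.4% and 7.68% of promoters. These matches describe letters in the Col-0 reference; the promoters of Ws and Ler were not read.

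In wild-type seeds GASA2 and GASA3 made up nearly all of the family's reads. They supplied at least 98.0% of the counts of the 6 genes in each of the 9 wild-type libraries. Per kilobase of transcript, a scale that allows genes to be compared where coverage is even, GASA3 stood at 406 to 1942 normalized CPM per kilobase in Ws, 1899 to 7226 in Ler and 1400 to 1698 in Col-0. On the same scale GASA2 reached 181 to 1294 in Ws, 471 to 974 in Ler and 307 to 1216 in Col-0. No other member exceeded 29.5 normalized CPM per kilobase in a wild type, and that was GASA6 in Ler at 17 DAF. The balance within the pair varied between libraries: GASA3 over GASA2, per length, was 2.28, 1.5 and 2.25 in Ws at 15, 17 and 21 DAF, 3.92, 7.42 and 10.8 in Ler, and 4.57, 2.06 and 1.40 in Col-0. It was higher in all 3 Ler libraries than in any Ws library, with no test made of this difference, and Col-0 overlapped both. The part of sequence differences between the ecotypes in these ratios was not tested.

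**Figure D1:**
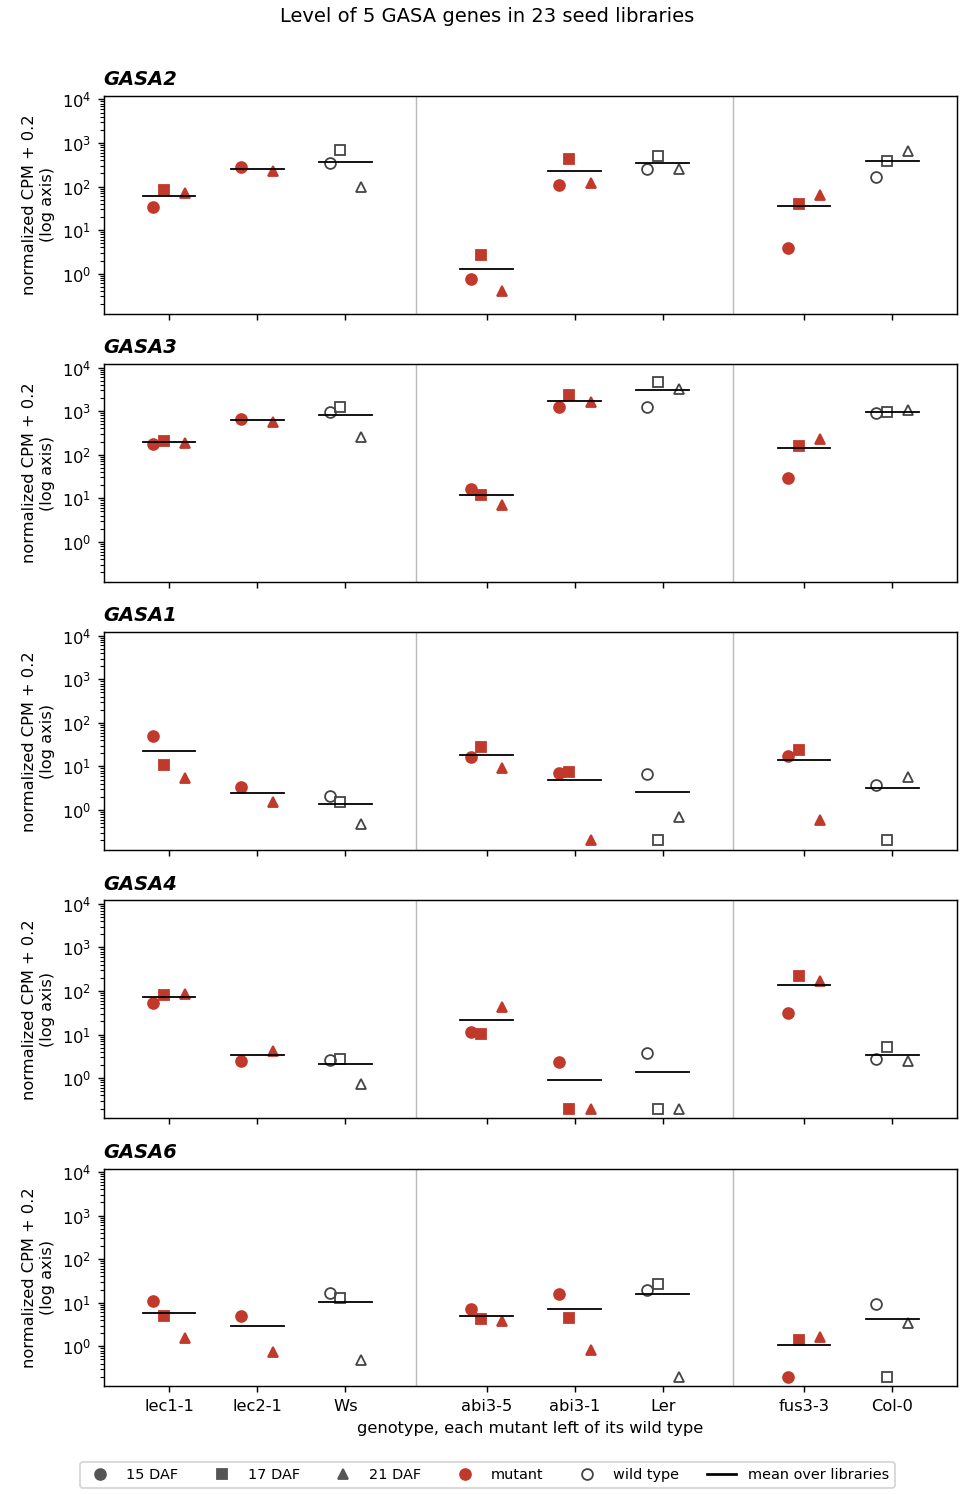
Normalized CPM plus 0.2 (log axis) of GASA1, GASA2, GASA3, GASA4 and GASA6 in each library by genotype. Mutants are to the left of their wild type, with points for 15, 17 and 21 DAF and a line for the mean. GASA5 is not drawn. GASA2 and GASA3 are lowest in abi3-5, at most 2.51 and 16.1 normalized CPM, while GASA4 is highest in fus3-3, lec1-1 and abi3-5.

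GASA2 and GASA3 are the seed members of the family, with transcripts known from siliques and dry seeds. In abi3-5, GASA2 had 0.57, 2.51 and 0.21 normalized CPM at 15, 17 and 21 DAF, against 256, 515 and 249 in Ler. GASA3 had 16.1, 11.6 and 6.94 normalized CPM in abi3-5, against 1215, 4624 and 3253 in Ler. Every abi3-5 library lay far below every Ler library for both genes. In raw counts GASA2 had 14 in the 3 abi3-5 libraries together, against 1789 in Ler, and GASA3 had 141, against 15353. The fitted differences between abi3-5 and Ler were -8.43 ± 0.99 (SE) on the log2 scale for GASA2 and -7.89 ± 0.83 for GASA3, both part of how the genes were chosen. The few remaining reads were mostly GASA3: GASA2 made up 3.39% of the pair's counts at 15 DAF (95% exact binomial interval 0.413% to 11.7%, counting error only), 17.7% at 17 DAF (9.20% to 29.5%) and 2.94% at 21 DAF (0.0744% to 15.3%). In Ler the same share was 17.4%, 10.0% and 7.11%.

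In the weak allele abi3-1 both genes were still abundant. GASA2 had 106, 436 and 124 normalized CPM in abi3-1, against 256, 515 and 249 in Ler, and GASA3 had 1274, 2307 and 1664 in abi3-1, against 1215, 4624 and 3253 in Ler. The ranges of abi3-1 and Ler overlapped for both genes. Differences were -0.82 ± 0.69 for GASA2 and -0.74 ± 0.61 for GASA3 (log2, SE; adjusted p = 1 each). Here and below, an adjusted p is from edgeR's quasi-likelihood test with Benjamini-Hochberg adjustment over all 16085 tested genes, called below 0.05. None of the 5 tested members was called between abi3-1 and Ler, a comparison in which 0.00622% of tested genes, 1 gene, were called; 269 of all genes had an unadjusted p below 0.05 in edgeR, and DESeq2 called 2 genes and no member. The comparisons of abi3-5 and abi3-1 share the Ler libraries. Set directly against abi3-1, abi3-5 had log2 differences of -7.62 ± 0.96 for GASA2 and -7.15 ± 0.80 for GASA3, again as a description.

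The pair also fell in lec1-1. GASA2 had 33.7, 81.1 and 70.1 normalized CPM in lec1-1, against 346, 685 and 95.6 in Ws, and GASA3 had 177, 211 and 188 in lec1-1, against 953, 1243 and 260 in Ws. After TMM scaling all lec1-1 libraries were below all Ws libraries for both genes, with the Ws library of 21 DAF the nearest. By library totals alone the groups overlapped. GASA3 then had 299, 312 and 311 CPM in lec1-1, against 277 in Ws at 21 DAF. GASA2 had 120 and 116 CPM in lec1-1 at 17 and 21 DAF, against 102 in that Ws library. GASA2 fell by 2.64 on the log2 scale (SE 0.74, edgeR adjusted p = 0.0146) and GASA3 fell by 2.07 (SE 0.64, adjusted p = 0.0248). Of the 5 members tested, 4 were called in lec1-1 against Ws, 2 higher and 2 lower, where 23.7% of all tested genes were called. The calls of the pair depend on scaling and on single libraries. With library totals in place of TMM, the median of all genes stood at 1.21 on the log2 scale, against 0.03 with TMM. There GASA2 stood at -1.22 (edgeR adjusted p = 0.109) and GASA3 at -0.68 (adjusted p = 0.342). GASA2 lost its call without the Ws library of 15 DAF or the lec1-1 library of 15 or 17 DAF, and GASA3 without any 1 library except that of Ws at 21 DAF, with adjusted p up to 0.123.

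Both genes were also lower in fus3-3, whose lowest library was that of 15 DAF. GASA2 had 3.68, 39.6 and 63.4 normalized CPM in fus3-3, against 162, 382 and 643 in Col-0. GASA3 had 28.8, 159 and 231 in fus3-3, against 896, 951 and 1087 in Col-0. The highest fus3-3 library stayed below the lowest Col-0 library for both genes. GASA2 fell by 3.63 (SE 0.76, edgeR adjusted p = 0.00376) and GASA3 fell by 2.90 (SE 0.66, adjusted p = 0.00636), both on the log2 scale. In fus3-3 against Col-0, 3 of 5 tested members were called, 1 higher and 2 lower, beside 19% of all tested genes. Each of the 3 calls held with any single library of the 2 genotypes left out. Without both Col-0 libraries of doubtful day, those labelled 17 and 21 DAF, GASA2 was at -3.02, GASA3 at -3.07 and GASA4 at 5.42. That fit left 1 Col-0 library, too few to decide the calls. Without all libraries of 17 DAF, the calls of GASA2 (edgeR adjusted p = 0.0511) and GASA3 (adjusted p = 0.0749) were lost. Calls over all genes fell there as well, to 1027 from 3058. Over all alternatives tried, the fit with 1 Col-0 library among them, GASA2 lost its call in 2, GASA3 in 3 and GASA4 in 1.

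Both genes were abundant in the tolerant mutant lec2-1. GASA2 had 284 normalized CPM in the doubled library of 15 and 17 DAF and 224 at 21 DAF in lec2-1, within the Ws range of 95.6 to 685. GASA3 had 657 and 567 in lec2-1, within the Ws range of 260 to 1243. The differences of lec2-1 from Ws were -0.52 ± 0.79 for GASA2 (adjusted p = 0.968) and -0.39 ± 0.70 for GASA3 (adjusted p = 0.975), and they turned positive with library totals, to 0.38 and 0.47. None of the 5 tested members was called in lec2-1 by edgeR, where 1.88% of all tested genes were called and 1491 genes had an unadjusted p below 0.05; DESeq2 and limma on the deposited signal called no member either. The lec1-1 and lec2-1 comparisons share the Ws libraries. Set directly against lec2-1, lec1-1 differed by -2.12 ± 0.76 at GASA2 (adjusted p = 0.137) and by -1.68 ± 0.68 at GASA3 (adjusted p = 0.186), which did not pass the test. When only the libraries of Ws and its 2 mutants were fitted, both were called (edgeR adjusted p = 0.0269 and 0.0339). Calls over all genes rose as well in that fit, to 1830 from 204.

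Ordered by mean level, GASA2 ran as Col-0, Ws, Ler, lec2-1, abi3-1, lec1-1, fus3-3 and abi3-5, with means of 396, 375, 340, 254, 222, 61.6, 35.6 and 1.10 normalized CPM. Neighbours in that order overlapped except at the 2 breaks between abi3-1 and lec1-1 and between fus3-3 and abi3-5. GASA3 ran as Ler, abi3-1, Col-0, Ws, lec2-1, lec1-1, fus3-3 and abi3-5, with means of 3031, 1748, 978, 819, 612, 192, 140 and 11.6 normalized CPM. For GASA3 the ranges did not overlap between abi3-1 and Col-0, lec2-1 and lec1-1, and fus3-3 and abi3-5. Both genes were lowest by mean in abi3-5, which was known when they were chosen, and next lowest in fus3-3 and lec1-1.

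**Figure D2:**
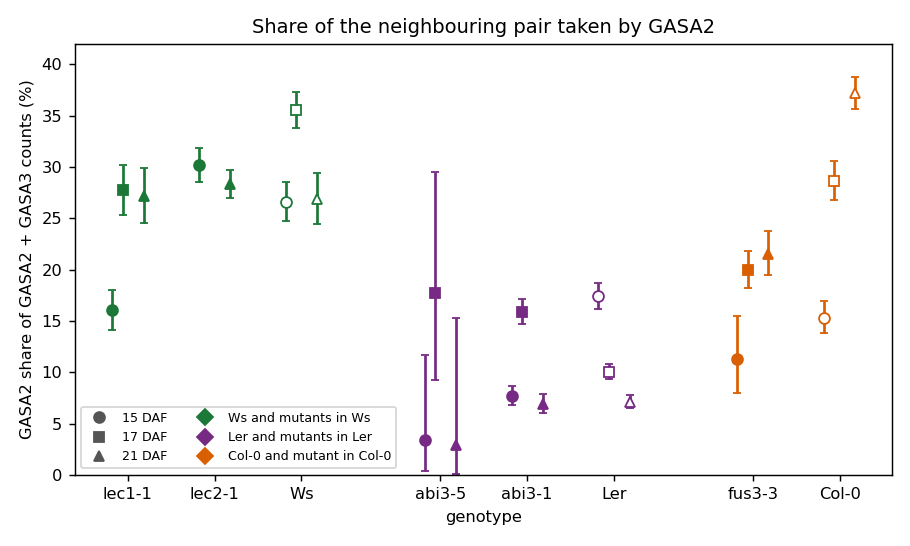
GASA2 as a percentage of the summed GASA2 and GASA3 counts in each library, by genotype with mutants to the left of their wild type; bars are 95% exact binomial intervals, which cover counting error only. Shares run from 2.94% to 17.7% in abi3-5 and from 7.11% to 17.4% in Ler, and from 16.0% to 27.7% in lec1-1 and from 26.6% to 35.5% in Ws.

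GASA4, known from meristems, root tips and young flowers and a promoter of gibberellin responses, moved the other way. In lec1-1 it had 54.0, 82.6 and 83.1 normalized CPM at 15, 17 and 21 DAF, against 2.47, 2.59 and 0.55 in Ws. In fus3-3 it had 31.0, 215 and 173, against 2.50, 4.94 and 2.30 in Col-0. Neither mutant overlapped its wild type on any day. GASA4 rose by 5.43 on the log2 scale in lec1-1 (SE 1.01, edgeR adjusted p = 0.00118) and by 5.37 in fus3-3 (SE 0.96, adjusted p = 0.0014). The rise in lec1-1 was called under every alternative tried, with log2 differences between 4.70 and 6.65. In abi3-5, GASA4 had 11.3, 10.3 and 42.5 normalized CPM, against 3.53, 0 and 0 in Ler, a log2 difference of 3.72 ± 1.01 given without a test; all abi3-5 libraries were above all Ler libraries. The tolerant mutants had little: 2.23 and 4.08 normalized CPM in lec2-1 and 2.19, 0 and 0 in abi3-1. GASA4 was higher in lec1-1 than in lec2-1 by 4.53 ± 1.06 (adjusted p = 0.041), the 1 call among 5 tested members in a comparison with 1.27% of all tested genes called. That call was lost when any 1 of the 5 libraries was left out, with adjusted p between 0.0805 and 0.5. By mean level GASA4 ran as fus3-3 (140), lec1-1 (73.3), abi3-5 (21.4), Col-0 (3.24), lec2-1 (3.16), Ws (1.87), Ler (1.18) and abi3-1 (0.729 normalized CPM), and neighbours overlapped except lec1-1 with abi3-5 and abi3-5 with Col-0.

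The make-up of the family's reads differed accordingly. GASA4 made up 16.6%, 21.1% and 23.9% of the counts of the 6 genes in lec1-1 at 15, 17 and 21 DAF, and at most 0.187% in Ws. It made up 38.3%, 49.05% and 36.9% in fus3-3, and at most 0.369% in Col-0. In abi3-5 its share was 22.1%, 18.1% and 68.0%, and at most 0.235% in Ler. The abi3-5 shares are of only 181, 248 and 297 counts, against 3823, 6358 and 7072 in Ler. These low totals include the loss of GASA2 and GASA3 known when the genes were chosen. GASA1 had more counts than GASA4 in abi3-5 at 15 DAF (57 against 40) and 17 DAF (123 against 45), and fewer at 21 DAF (44 against 202). GASA2 and GASA3 together kept 64.8% to 74.8% in lec1-1, 40.1% to 62.7% in fus3-3 and 11.4% to 32.6% in abi3-5.

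GASA1, a gibberellin-induced member, was low in wild types and higher at some days in the intolerant mutants. It had 49.6, 10.9 and 5.25 normalized CPM in lec1-1, against 1.85, 1.30 and 0.28 in Ws, so the groups did not overlap and the 15 DAF library of lec1-1 was the highest of all 23. GASA1 rose by 4.08 on the log2 scale in lec1-1 (SE 1.18, edgeR adjusted p = 0.0177). The call was lost without any 1 of the 3 Ws libraries or without lec1-1 at 15 DAF, with adjusted p up to 0.0788. In fus3-3 it had 17.5, 24.0 and 0.40 normalized CPM, against 3.49, 0 and 5.51 in Col-0, high at the first 2 days and within the Col-0 range at 21 DAF. This difference, 1.44 ± 1.07, did not pass the test (adjusted p = 0.37), but it passed with library totals (2.79, adjusted p = 0.0391) and without all libraries of 21 DAF (3.68, adjusted p = 0.0347). In abi3-5 it had 16.1, 28.1 and 9.25 normalized CPM, against 6.67, 0 and 0.50 in Ler, a log2 difference of 3.09 ± 1.07 without a test. GASA1 had 3.19 and 1.30 normalized CPM in lec2-1, and 7.0, 7.23 and 0 in abi3-1.

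GASA6, known in germinating seeds as a promoter of cell elongation, was lower at 21 DAF than at 15 or 17 DAF in Ws and Ler seeds. In Ws it had 16.7, 13.0 and 0.28 normalized CPM at 15, 17 and 21 DAF, and in Ler 19.6, 26.8 and 0. Both wild types were at or near 0 at 21 DAF, with 1 count, against 77 at 15 DAF. Between 21 and 15 DAF in Ws and Ler, GASA6 fell by 6.31 on the log2 scale (SE 0.85, edgeR adjusted p = 0.000245 over 11314 genes). Scaled for library size, the ratio of these counts at 15 over 21 DAF was 104, with a counting interval of 18.2 to 4175. GASA6 was the 1 member called of 3 tested for time, a test that called 21.4% of genes. GASA2 (-0.97 ± 0.53, adjusted p = 0.221) and GASA3 (-0.32 ± 0.74, adjusted p = 0.801) did not pass, and GASA1, GASA4 and GASA5 had too few counts in these 6 libraries. With Col-0 added under its deposited days, GASA6 was at -3.52 (adjusted p = 0.262) and 0 of all genes were called over time. With the labels of 17 and 21 DAF exchanged in Col-0, GASA6 was at -6.50 (adjusted p = 9.69e-06) and 4450 genes were called.

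Between genotypes GASA6 gave no call. It had 10.8, 4.87 and 1.37 normalized CPM in lec1-1 (difference from Ws -0.61 ± 1.06, adjusted p = 0.71), and 0, 1.17 and 1.41 in fus3-3, against 8.99, 0 and 3.21 in Col-0 (-2.02 ± 1.34, adjusted p = 0.305). It had 6.80, 4.11 and 3.57 in abi3-5, against 19.6, 26.8 and 0 in Ler, where the groups overlapped. GASA5, a member described in heat tolerance and flowering, had 2 counts in all 23 libraries, 1 in abi3-5 at 15 DAF and 1 in Ler at 21 DAF. It was the 1 member left out of the tests, and 0 counts in a library allow up to 0.459 to 1.80 CPM, depending on the library's depth.

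**Figure D3:**
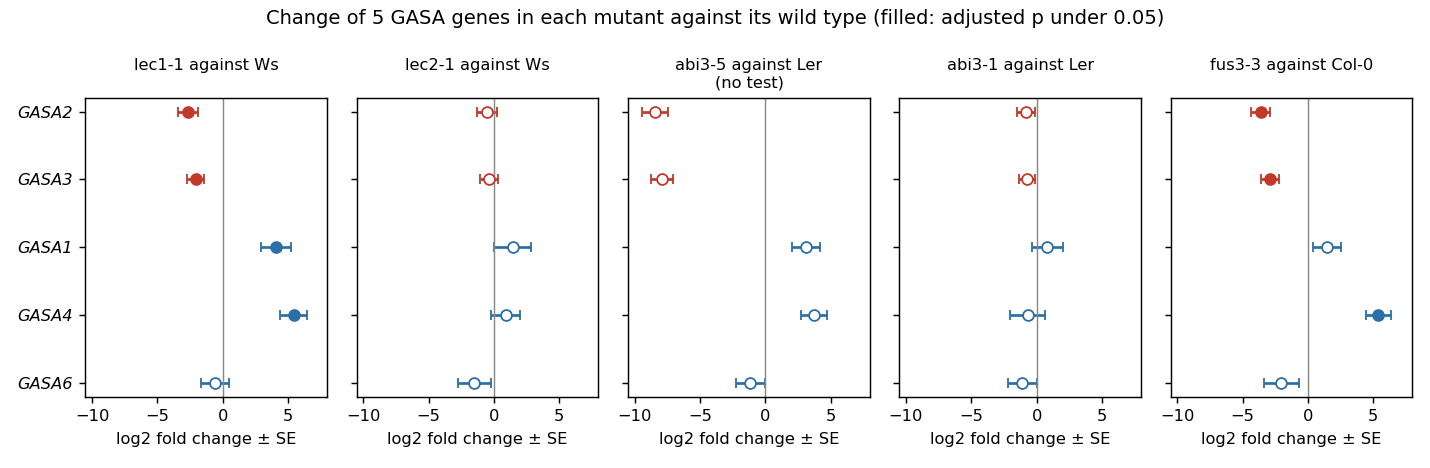
Log2 difference with its SE for the 5 tested members in each mutant against its wild type; filled points had an edgeR adjusted p below 0.05, and the abi3-5 panel carries no test. GASA2 and GASA3 lie below 0 and GASA4 above it in lec1-1, fus3-3 and abi3-5, while lec2-1 and abi3-1 hold no filled point.

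The effects of fus3-3 and lec1-1 on the members were compared directly. The fus3-3 effect minus the lec1-1 effect was -0.99 ± 0.97 for GASA2, -0.83 ± 0.87 for GASA3, -0.06 ± 1.07 for GASA4, -2.64 ± 1.62 for GASA1 and -1.41 ± 1.68 for GASA6 (adjusted p = 1 each). By edgeR 0 members were called, as were 0.00622% of all tested genes, 1 gene, and 674 genes had an unadjusted p below 0.05; DESeq2 called 12 genes and no member.

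Several seed markers moved with these results. The endosperm marker EPR1 had 162 to 222 normalized CPM in lec1-1, against 553 to 1440 in Ws, and 71.2 to 236 in fus3-3, against 771 to 1073 in Col-0, and it fell in both (log2 -2.43 and -2.50). In abi3-5 it had 79.2 to 343, against 735 to 954 in Ler. In the tolerant mutant abi3-1 EPR1 had 342 to 720, also below every Ler library, but it was not called there. In lec2-1 it had 911 to 1091, within the Ws range. The other endosperm marker, ZOU, had 0 or 1 count in each library. Of 4 embryo reserve markers, 3 fell in lec1-1 and 3 in fus3-3, where 9.15% and 8.67% of all tested genes fell. Their summed level was 35624 to 67979 normalized CPM in lec1-1, against 78338 to 768322 in Ws. In fus3-3 it was 62623 to 115073, against 153536 to 950451 in Col-0. In abi3-5 the same sum was 76977 to 126061, against 359504 to 826346 in Ler. Of 5 seed coat markers, 2 were tested; 0 were called in lec1-1 and 1 fell in fus3-3. In whole seeds, fewer cells of a type and less RNA per cell cannot be told apart, and the part of these tissues in the GASA differences was not tested.

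Other genes of the family and of the hormone pathway put the members in context. Of 9 further GASA-type loci, 3 had enough counts to be tested. GASA14, a member with a proline-rich stretch, had 55.8, 62.0 and 37.0 normalized CPM in lec1-1 and 56.1 and 15.4 in lec2-1, against 0, 1.30 and 1.38 in Ws. It rose by 5.61 in lec1-1 (SE 0.85, edgeR adjusted p = 0.000319) and by 5.07 in lec2-1 (SE 0.88, adjusted p = 0.00531), and the lec2-1 call was lost without the doubled library. In fus3-3 GASA14 had 58.2, 72.8 and 46.6 normalized CPM, against 0.998, 0 and 1.38 in Col-0 (log2 6.02, SE 0.88, adjusted p = 0.000326). In abi3-5 it stayed at 2.27, 1.60 and 3.99, against 1.57, 0 and 1.98 in Ler. GASA14 was thus high in lec2-1, where GASA4 had 2.23 and 4.08 normalized CPM, and low in abi3-5, where GASA4 had 10.3 to 42.5.

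AT2G14900, annotated as a gibberellin-regulated family protein, was highest, like GASA1, in lec1-1 at 15 DAF. It had 61.9, 16.6 and 4.34 normalized CPM in lec1-1, against 1.23, 0.648 and 0.276 in Ws (log2 4.86, SE 0.96, edgeR adjusted p = 0.00179). Its rise of 2.69 in fus3-3 (SE 0.91, adjusted p = 0.0458) was lost without any 1 of 4 libraries: Col-0 at 15 or 17 DAF, or fus3-3 at 17 or 21 DAF. AT5G59845, of the same annotation, was low at 21 DAF like GASA6: between 21 and 15 DAF in Ws and Ler it fell by 4.01 (SE 0.65, adjusted p = 0.000854). It fell by 3.43 in fus3-3 (SE 1.10, adjusted p = 0.036), a call that held only without the Col-0 library of 17 DAF among the 6 leave-one-out fits, and that was lost with library totals (-1.97, adjusted p = 0.113).

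Among gibberellin genes, GID1B, a receptor, had 78 counts in lec1-1 and 105 in lec2-1, against none in Ws (edgeR, adjusted p = 0.00176 and 0.00434). With the whole Ws group set at 3 counts and counts scaled for library size, it was at least 11.3-fold and at least 27.9-fold higher. In fus3-3 GID1B had 82 counts, against 3 in Col-0, a ratio of 6.71 after the same scaling (counting interval 2.22 to 33.2). Its edgeR adjusted p was 0.0399, and the call was lost in 4 of 6 leave-one-out fits. RGL2, a DELLA repressor of germination, rose by 2.61 in fus3-3 (SE 0.57, edgeR adjusted p = 0.00506) and by 1.82 in lec1-1 (SE 0.57, adjusted p = 0.0269); the lec1-1 call was lost without Ws at 21 DAF or lec1-1 at 17 or 21 DAF. RGA, another DELLA protein, rose by 1.94 in lec1-1 (SE 0.58, adjusted p = 0.021), a call lost without Ws or lec1-1 at 17 DAF. SPY, a modifier of DELLA proteins, fell by 1.02 in lec1-1 (adjusted p = 0.0387) and by 1.03 in fus3-3 (adjusted p = 0.0452), but neither held with library totals, where the differences were 0.20 and 0.02. In all, of 12 tested perception and signalling genes, 3 rose and 1 fell in lec1-1, 2 rose and 1 fell in fus3-3, 1 rose in lec2-1 and 0 were called in abi3-1; their median log2 differences were 0.83, 0.89, 0.00 and 0.02, beside 0.03, 0.02, -0.01 and -0.01 over all genes. Over all tested genes, 14.5% rose and 9.15% fell in lec1-1, 10.3% rose and 8.67% fell in fus3-3, and 1.85% rose in lec2-1.

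Of 13 synthesis genes, 7 were tested. In lec1-1 GA3OX2, which makes active gibberellin, rose, with 29 counts against 0 in Ws. Scaled for library size, with Ws set at 3 counts, this was at least 4.19-fold. In fus3-3 GA3OX2 had 47 counts, against 1 in Col-0, but it was not called there (edgeR adjusted p = 0.0642). In abi3-5 it had 5, 7 and 36 counts at 15, 17 and 21 DAF, against 0 in each Ler library, without a test. GA3, an early enzyme, fell in lec1-1 by 1.35 (SE 0.48, edgeR adjusted p = 0.0457). The GA3 call was lost with library totals and in 5 of 6 leave-one-out fits, and that of GA3OX2 without Ws at 17 or 21 DAF or lec1-1 at 17 DAF. No synthesis gene was called in fus3-3, lec2-1 or abi3-1, and the 1 tested inactivation gene of 7 was called in none of these comparisons. Over time in Ws and Ler, 2 of 5 tested synthesis genes rose and 3 fell, where 7.07% of all 11314 tested genes rose and 14.4% fell; GA20OX3 fell by 5.10 (SE 0.60, adjusted p = 0.000111), as GASA6 fell. KAO2 rose by 4.26 (adjusted p = 0.00307) and KAO1, of the same oxidase family, fell by 2.51 (adjusted p = 0.0163); the KAO2 call was lost without Ws at 15 DAF and the KAO1 call without Ler at 15 or 21 DAF or with library totals. Of 10 tested perception and signalling genes 4 rose over time, among them the receptor genes GID1A and GID1C, by 1.80 and 2.91 at 21 against 15 DAF (adjusted p = 0.00856 and 0.00149), the GID1A call lost without Ws or Ler at 15 DAF. PIF1, a light-regulated repressor of germination, rose by 2.85 (adjusted p = 0.00331), a call lost without Ws at 15 DAF.

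**Figure D4:**
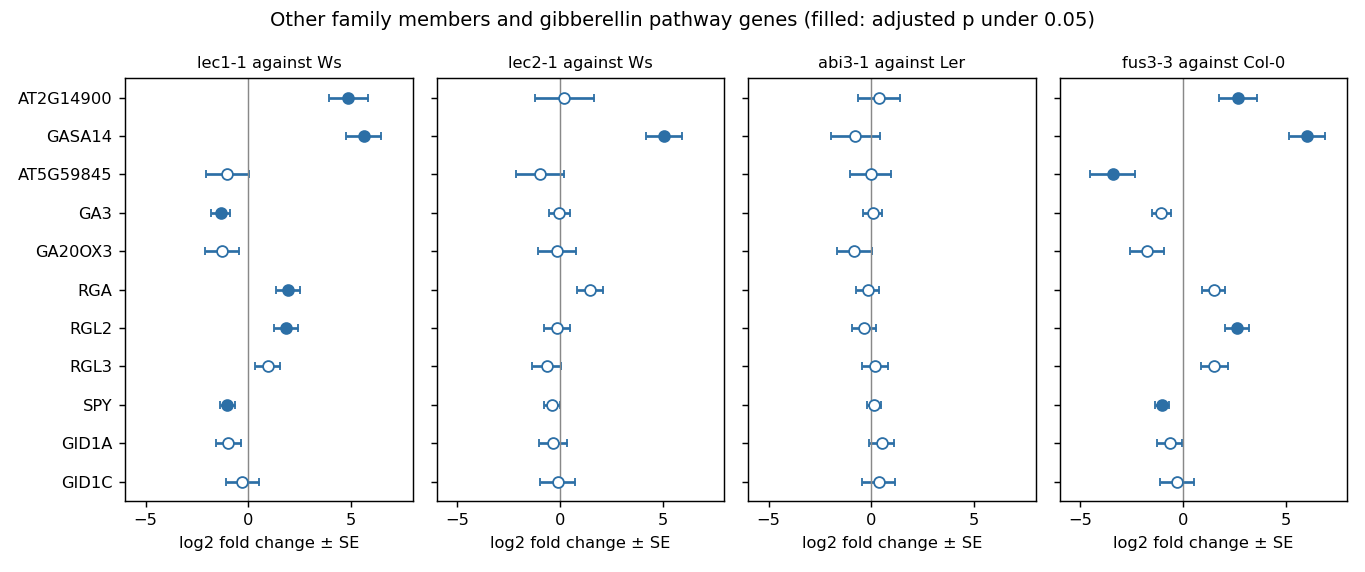
Log2 differences with SE of other GASA-type and gibberellin genes in lec1-1, lec2-1, abi3-1 and fus3-3 against their wild types; filled points had an edgeR adjusted p below 0.05. GASA14 is above 5 in lec1-1, lec2-1 and fus3-3, and no gene is filled in abi3-1.

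Genes with the most similar pattern were ranked by Pearson's r of log2(normalized CPM + 2) over the 23 libraries, which share scaling and genotypes, so r is a description. The 23 include the abi3-5 libraries, whose low GASA2 and GASA3 were known when the pair was chosen, so the ranks of the pair rest in part on those values. Among 10446 genes, GASA3 was the 4th closest to GASA2, and GASA2 the 6th closest to GASA3 (r = 0.94). AT2G19320, an uncharacterized protein, was closest to the mean of the pair (r = 0.98), at 0 to 1.42 normalized CPM in abi3-5, against 63.2 to 116 in Ler. The seed tonoplast aquaporin TIP3;1 (r = 0.95) and 2 genes annotated with DUF1264, AT5G45690 and AT1G05510 (r = 0.96 each), were also among the 5 closest. Closest to GASA4 were the amino acid transporter gene AT1G47670 (r = 0.95) and XTH5, a cell wall xyloglucan enzyme (r = 0.95), which had 50.5 to 64.8 normalized CPM in lec1-1, against 0 to 2.48 in Ws, and 153 to 218 in fus3-3, against 3.70 to 6.89 in Col-0. Closest to GASA1 was the transcription factor gene bHLH093 (r = 0.88), with AT2G14900 the fifth (r = 0.83). GASA1 and GASA4 were less alike (r = 0.53), and for GASA3 and GASA4 r was -0.62. GASA5 and GASA6 averaged under 20 counts and were not ranked.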

How the data were processed

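Per the labels, RNA of 3 collections per genotype and day was pooled, amplified and sequenced as barcoded SOLiD libraries. The authors deposited raw counts of 33597 loci in 24 columns and a table of normalized signal; the submitters' processing notes name TAIR10 and edgeR, and the aligner and counter are not given in the sources used here. The deposited signal of a library equals its counts multiplied by a single factor. Members and gene lists were chosen with earlier results of these data known. Counts were tested in edgeR 4.0.16 (R 4.3.3) by quasi-likelihood, with a term for genotype and day over 23 libraries, TMM factors of 0.486 to 1.91 and filterByExpr at a minimum count of 10; p-values were adjusted by Benjamini-Hochberg over all 16085 tested genes. Fits were also run on simulated counts, with planted differences in some genes and no other genotype or day effect. Such counts are simpler than these data, so that run does not bear on the calls given here. Time was fitted in Ws and Ler. Genes named were the members, up to 3 called genes per list and comparison with the smallest adjusted p, and the 5 most alike; SPY in lec1-1 was added after its value was seen. DESeq2 1.42.0, limma 3.58.1 on the signal, other scalings, no filter, no day term, subsets of ecotypes or days and leaving out each library were alternatives. Promoters and gene models are RefSeq's.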

Additional observations from a re-analysis of the deposited data

Results flagged for a closer look

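GASA4 in lec1-1 against lec2-1 was set apart by a test of the difference between mutants of the same ecotype: GASA4 was higher in lec1-1 by a log2 difference of 4.53 (edgeR, adjusted p = 0.041). It had 54.0 to 83.1 normalized CPM in the 3 lec1-1 libraries, against 2.23 and 4.08 in the 2 lec2-1 libraries. No fit without 1 of these libraries kept the call.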

How the results depend on the processing

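Of 648 member values recomputed under other settings, 583 kept their direction and side of the threshold, 38 lost a call, 5 gained one and 22 changed sign, none of a called gene. Members called in lec1-1 against Ws, 4, came to 2 with library totals, 1 without all libraries of 15 or of 17 DAF, and 1 to 3 with single libraries left out. Calls over all genes in lec1-1 were 3809 in the main fit, 6542 with library totals, 1789 without 15 DAF and 866 without 17 DAF. In fus3-3, 3 members came to 1 without all of 17 DAF, where calls over all genes came from 3058 to 1027. Without both Col-0 libraries of doubtful day 1 Col-0 library was left, too few to decide the calls. In lec1-1 against lec2-1, 1 came to 4 with Ws and its 2 mutants alone, and to 0 without a day term, without any day, with the doubled lec2-1 library at 17 DAF, and with any single library left out. For that comparison, the fit of Ws and its 2 mutants alone called 1830 of all genes, against 204 in the main fit. The cause of these changes was not tested. Over time, 1 came to 0 with Col-0 added under its deposited days, and was 1 (GASA6) with the Col-0 days of 17 and 21 DAF exchanged, where 4450 genes were called, against 0 with the deposited days.

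Uncalled values that changed sign were, with library totals, GASA6 in lec1-1 (0.79), GASA2 and GASA3 in lec2-1 (0.38, 0.47) and GASA3 over time (0.47). Without all of 15 DAF, GASA4 in abi3-1 was at 0.0103. Without all of 17 DAF, GASA2 in lec2-1 was at 0.0926, GASA1 in abi3-1 at -0.0781 and GASA1 in fus3-3 at -0.15. Without all of 21 DAF, GASA4 in lec2-1 was at -0.15. The fus3-3 minus lec1-1 effect for GASA4 was 0.0178 by DESeq2, 0.0277 without a day term, 0.21 without 21 DAF and -0.70 to 0.65 with single libraries left out. GASA2 over time was at 0.23 with Col-0. With single libraries left out, GASA2 in lec2-1 ranged from -1.09 to 0.15 and GASA3 from -0.90 to 0.0452 (positive without Ws at 15 DAF), GASA4 in abi3-1 from -5.81 to 5.16 (positive without Ler at 15 DAF) and GASA3 over time from -1.62 to 0.91 (positive without Ws at 15 or 21 DAF).

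Genes called in all ranged across settings from 866 to 6542 in lec1-1, 30 to 757 in lec2-1, 201 to 5887 in fus3-3 and 2 to 1830 in lec1-1 against lec2-1. The fit already holds the day as a block; replicate numbers only name days, and no further pairing was made. Depth limits GASA5 and GASA6.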
